A study of Mus musculus with 8 samples.

Results

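Imprinted genes that neurons express were examined in the hippocampus of adult mice: Meg3, Rian, Mirg, Peg3, Snrpn, Ndn, Nnat, Impact, Zrsr1 and Plagl1. They were taken by gene symbol from the deposited table of all genes, where these 10 are among 54532 listed genes, and all 10 had a level that could be tested. Hippocampal RNA was sequenced in 4 libraries from mice heterozygous for Kat6a (Kat6a+/-) and in 4 libraries from wild-type mice (WT). The product of Kat6a, a MYST family enzyme, adds acetyl groups to histones. The labels give the genotype alone: how the Kat6a allele was made, the strain, the sex and the age beyond adult are not given there. Nor do they state whether the libraries stand for separate animals, so every p-value here measures library-to-library spread, which may include technical spread.

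An imprinted gene is read mainly from the copy inherited from the mother or mainly from the copy inherited from the father, because DNA methylation set down in the germ cells marks the copies differently. Such genes often lie in shared domains under a common control region, and many are read strongly in brain. In the mouse, Meg3, Rian and Mirg are read from the maternal copy of the Dlk1-Dio3 domain, whereas Dlk1, Rtl1 and Dio3 in the same domain are read mainly from the paternal copy. The other members are read from the paternal copy. The values here sum both copies, so they describe transcript levels and not which copy was read.

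Depth ran from 16462428 to 27875310 reads per library. Kat6a itself had 6.06, 7.64, 7.32 and 7.06 FPKM (fragments scaled for gene length and sequencing depth) in the Kat6a+/- libraries, against 9.35, 8.97, 8.55 and 9.71 FPKM in the WT libraries, and the genotypes did not overlap. The summed level of 10 pan-neuronal markers was 1107 to 1226 FPKM in Kat6a+/- and 1125 to 1196 FPKM in WT libraries, and that of 10 hippocampal neuron markers was 339 to 380.1 FPKM in Kat6a+/- and 306 to 366 FPKM in WT libraries. All 10 interneuron markers had a lower mean in Kat6a+/-, with sums of 379 to 413 FPKM against 408 to 474 FPKM in WT. All 8 oligodendrocyte markers had a higher mean in Kat6a+/-, with sums of 724 to 914 FPKM against 602 to 876 FPKM in WT, as had all 8 tested markers of choroid plexus and ependyma; limma called 0 markers of any list. Markers of choroid plexus and ependyma stood apart in Kat6a+/- library 2, with a sum of 163 FPKM against at most 53.2 FPKM in any other library, and those of meninges stood apart in WT library 1, with 20.3 FPKM against at most 14.1 FPKM elsewhere. Hypothalamic peptide genes were near the floor: Hcrt had at most 1 read and Pmch and Oxt at most 2 reads in any library, while Avp had 9 reads in Kat6a+/- replicate 1 and 0 to 3 reads elsewhere. In bulk tissue, fewer cells of a type and less RNA per cell cannot be told apart.

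The Dlk1-Dio3 members are long noncoding RNAs whose introns and exons carry small RNAs, which is why a few of those small RNAs are printed here. Within the annotated bounds of the hosts on chromosome 12, RefSeq (build GRCm38.p6) placed 3 mature miRNAs from 2 genes in Meg3, 6 from 3 genes in Rian and 26 from 14 genes in Mirg. The 26 mature miRNAs of Mirg carry 25 different seeds, the seed being bases 2 to 8 from the 5′ end. The 2 that share a seed, miR-453 and miR-496a-5p, are shown first, with miR-134-5p, known for its effect on dendritic spines, and miR-410-3p after them. Capitals mark the seed.
mmu-miR-453: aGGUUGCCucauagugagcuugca
mmu-miR-496a-5p: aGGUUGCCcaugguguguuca
mmu-miR-134-5p: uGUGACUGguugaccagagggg
mmu-miR-410-3p: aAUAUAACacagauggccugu

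Promoter sequence was taken from RefSeq (build GRCm38.p6) as windows of 300 bases, 250 before and 50 from each annotated start. The member windows numbered 13 and covered 9 of the 10 members. Impact was the member not covered, so nothing can be said of motifs at its start. Motifs were chosen after the sequences were read, and were searched on both strands over all 32851 windows. The cAMP response element TGACGTCA was present in a window of Meg3, in that of Peg3 and in 1.79% of all windows. Another Meg3 window, chr12:109545148-109545447, held none of the motifs named in this paragraph. The core of the NRF1 motif, GCATGCG, was present in the windows of Nnat, Ndn and Snrpn, including all 4 Snrpn windows, and in 3.58% of all windows. Most of the Snrpn windows carry nearly the same bases around the motif, so they do not count as separate matches. The ZFP57 motif TGCCGC, which that factor binds when methylated, was found in windows of Nnat, Snrpn, Plagl1 and Meg3 and in 11.6% of all windows. TATAAA was found in windows of Meg3 and Snrpn and in 13.6% of all windows. These matches describe letters in a window and not occupied sites. The Meg3 window with the cAMP response element is printed whole because the levels of Meg3 varied most among the abundant members. It is chr12:109540746-109541045 on the plus strand, with the cAMP response element in capitals starting 57 bases before the RefSeq start.
Meg3: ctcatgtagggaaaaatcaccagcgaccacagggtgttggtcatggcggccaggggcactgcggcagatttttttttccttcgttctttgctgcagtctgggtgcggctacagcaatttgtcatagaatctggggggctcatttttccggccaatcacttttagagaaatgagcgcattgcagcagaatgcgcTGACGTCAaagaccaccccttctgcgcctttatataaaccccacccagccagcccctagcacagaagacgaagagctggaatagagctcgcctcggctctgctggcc

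The stretch of the Peg3 window around the same element is chr7:6730564-6730623 on the minus strand. For the genes with the NRF1 core, 60 bases around it are shown, and the capitals mark where the motif lies on both strands with overlap. They are chr7:62348228-62348287 (plus strand) for Ndn, chr2:157560027-157560086 (plus strand) for Nnat and chr7:60140270-60140329 (minus strand) for Snrpn. They are shown because Ndn and Nnat varied together across the libraries, as described further on, and Snrpn followed them less over all 8. Pearson's r of Snrpn over the 8 libraries was 0.34 with Ndn and 0.03 with Nnat. Within the 4 Kat6a+/- libraries it was 0.845 and 0.995, and within the 4 WT libraries 0.09 and -0.33, in the same order.
Peg3: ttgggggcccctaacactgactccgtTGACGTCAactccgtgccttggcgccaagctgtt
Ndn: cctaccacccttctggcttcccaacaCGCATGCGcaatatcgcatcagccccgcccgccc
Nnat: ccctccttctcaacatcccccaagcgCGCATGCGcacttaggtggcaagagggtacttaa
Snrpn: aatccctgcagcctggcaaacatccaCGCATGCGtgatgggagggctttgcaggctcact

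Per length, the members spanned from among the more abundant hippocampal transcripts to the lower end of the tested range. Snrpn, the gene of the brain form of a spliceosomal core protein, had the highest mean over the 8 libraries, 155 FPKM. It was followed by Nnat with 136 FPKM, Meg3 with 61.8 FPKM and Impact with 58.1 FPKM. Below them were Ndn with 35.9 FPKM, Peg3 with 23.2 FPKM, Rian with 19.2 FPKM and Zrsr1 with 12.7 FPKM. Plagl1, with 2.13 FPKM, and Mirg, with 0.750 FPKM, were the lowest. Meg3 and Impact overlapped in their values, whereas all other neighbours in this order did not overlap in any of the 8 libraries. Among the 14159 tested genes, those whose mean reached 0.5 FPKM, Snrpn ranked 178th and Mirg 13023rd. Together the 10 genes held 0.246% to 0.327% of a library's reads.

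**Figure D1:**
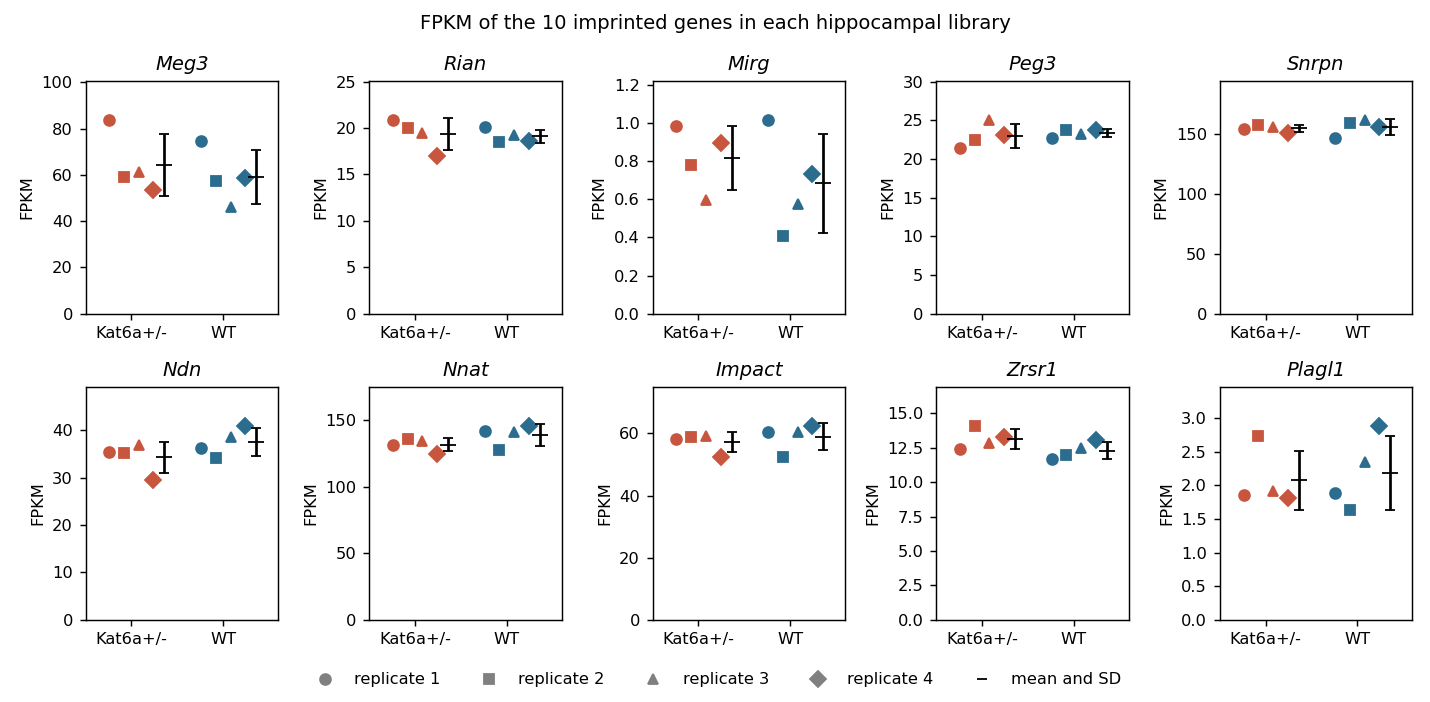
FPKM of each member in each library, Kat6a+/- at left and WT at right of every panel; symbols mark replicates 1 to 4, and the bar shows the mean with its SD (n = 4 libraries). The genotypes overlap for all 10 genes, and Meg3 was highest in replicate 1 of each genotype, at 83.8 FPKM in Kat6a+/- and 74.7 FPKM in WT.

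The study compared Kat6a+/- with WT hippocampus, and none of the 10 imprinted genes passed the test of that comparison. The mean difference was positive for 4 members and negative for 6, from -0.13 for Ndn to 0.17 for Mirg on the log2(FPKM + 0.5) scale, which understates changes of low genes. The test was limma with Benjamini-Hochberg adjustment over all 14159 tested genes at 0.05. It called 0 of 10 members, and edgeR, limma-voom and DESeq2 on reads recovered from the FPKM values also called 0 of 10. Over all tested genes limma, edgeR and limma-voom each called 0.0% and DESeq2 called 0.0353%, which is 5 genes. At an unadjusted p under 0.05, 0 of 10 members passed by any of these 4 tools, beside 4.41% of all tested genes by limma (1.78% higher and 2.63% lower in Kat6a+/-), 4.35% by edgeR, 4.24% by limma-voom and 3.3% by DESeq2. Groups did not overlap for 0 of 10 members and for 2.62% of all tested genes, 1.09% with Kat6a+/- higher and 1.53% with Kat6a+/- lower. The median log2 fold change was -0.02 over the members and 0.0010 over all tested genes.

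A p that misses the threshold does not show that levels were equal, so the 95% intervals of limma give the range of differences these libraries allow. The interval was narrowest for Snrpn, -0.10 to 0.08, and reached farthest for Mirg, -0.22 to 0.55. For 9 of the 10 members it lay within 0.5 log2 units of zero.

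**Figure D2:**
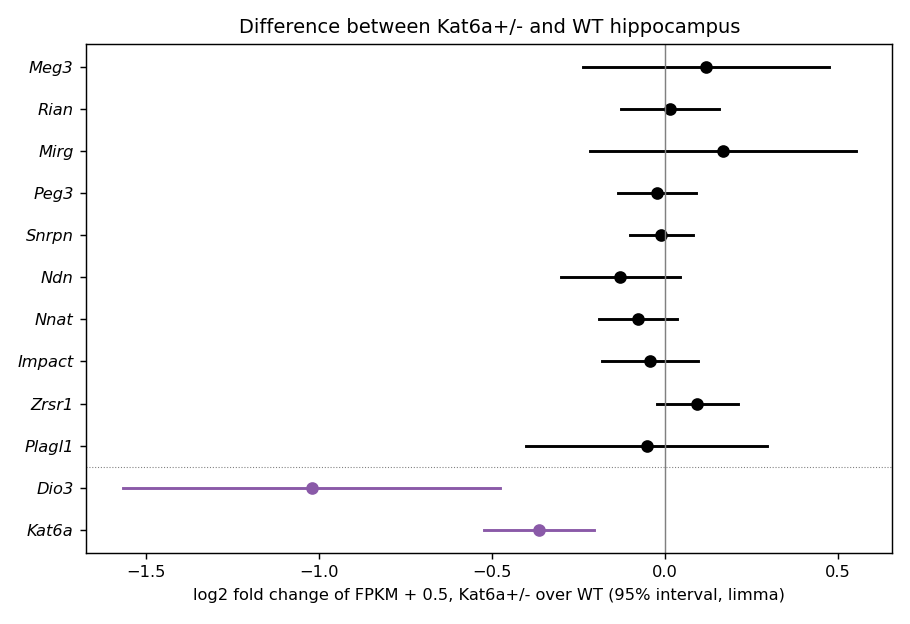
Log2 fold change of FPKM + 0.5, Kat6a+/- over WT, with 95% intervals from limma; the 10 members are in black, and Dio3 and Kat6a in purple for comparison. The members' intervals all include 0, whereas Dio3 is at -1.02 and Kat6a at -0.36 with intervals below 0; neither passed the adjusted threshold in limma.

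Among the maternally read RNAs of the Dlk1-Dio3 domain, Meg3 is a nuclear long noncoding RNA that binds Polycomb proteins (18089 bases of exon, chr12:109541001-109571726, plus strand). Meg3 had 83.8, 59.2, 61.2 and 53.3 FPKM in the Kat6a+/- libraries, against 74.7, 57.3, 46.0 and 58.8 FPKM in the WT libraries. The highest library of each genotype was replicate 1, and the groups overlapped. The mean was 64.4 ± 13.4 FPKM in Kat6a+/- and 59.2 ± 11.8 FPKM in WT (SD, n = 4 each). The log2 fold change was 0.12 with a standard error of 0.16 (exact two-sided permutation p = 0.543, limma adjusted p = 0.9998). Without Kat6a+/- replicate 1 it was -0.01. Markers of thalamus and hypothalamus, a list of 10, had their lowest Kat6a+/- sum in replicate 1, 12.5 FPKM against 12.7 to 13.8 FPKM. Among the WT libraries the sum was highest in replicate 1, 15.4 FPKM against 10.9 to 12.9 FPKM. Of the 10, Slc17a6 was picked after its values were seen. It was highest in replicate 1 of each genotype, 3.30 FPKM in Kat6a+/- and 4.52 FPKM in WT. The other libraries had 1.51 to 2.56 FPKM of it. The part of thalamic or hypothalamic tissue in the Meg3 levels was not tested. The coefficient of variation of Meg3 was 20.8% in Kat6a+/- and 19.9% in WT libraries, where read counting alone would give 0.659%. Meg3 took 0.157% of the reads of Kat6a+/- replicate 1 and 0.0835% of those of WT replicate 3, its extremes.

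Rian, the host of C/D box small nucleolar RNAs (chr12:109603940-109661716), had 20.9, 20.1, 19.5 and 17.0 FPKM in Kat6a+/- and 20.1, 18.5, 19.3 and 18.6 FPKM in WT. The highest Kat6a+/- value lay above the WT range, the lowest below it and the others inside it. The log2 fold change of Rian was 0.02 (exact permutation p = 0.886). Mirg, a host of miRNAs (chr12:109729764-109749460), had 0.986, 0.780, 0.598 and 0.897 FPKM in Kat6a+/- and 1.02, 0.407, 0.577 and 0.735 FPKM in WT. These levels rest on few reads, 516 over the Kat6a+/- libraries and 389 over the WT libraries, and the groups overlapped. The log2 fold change of Mirg was 0.17 with a standard error of 0.17 (exact permutation p = 0.400). The ratio of Meg3 to Rian levels, both per length, ran from 2.95 to 4.01 in Kat6a+/- and from 2.39 to 3.72 in WT libraries, so the RNAs of this domain were not in a fixed proportion.

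Reads counted to genes inside these hosts were few. The 2 miRNA genes of Meg3 had 0 reads. The 4 miRNA genes in Rian had 91 reads in Kat6a+/- and 75 in WT, and its 13 small nucleolar RNA genes had 89 reads in Kat6a+/- and 83 in WT, from 4 of the 13. In Mirg, 7 of 15 miRNA genes had a read, with 63 reads in Kat6a+/- and 32 in WT. Whether such reads come from the small RNA or from its host cannot be told apart, and no level of a mature miRNA can be read from them.

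The paternally read genes of the domain were taken as a fixed list of neighbours. Dio3 encodes the type 3 deiodinase, the enzyme that inactivates thyroid hormone, and starts 530 kb beyond Mirg. Dio3 had 0.736, 0.612, 0.650 and 0.198 FPKM in Kat6a+/- libraries, against 1.66, 0.836, 1.85 and 2.26 FPKM in WT libraries. All Kat6a+/- values lay below all WT values, on 99 reads in Kat6a+/- and 262 in WT. The log2 fold change was -1.02 with a 95% interval of -1.57 to -0.47 (exact permutation p = 0.0286, the smallest that 4 against 4 libraries allow). Its adjusted p was 0.9998 in limma and 0.632 in edgeR, and 0.0195 in DESeq2, which thus called it. The authors' deposited table puts Dio3 at -1.57 on the log2 scale (adjusted p = 0.0709, DESeq2 per the submitters' processing notes); none of the 10 members is among the 605 genes of that table.

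Dlk1, a transmembrane ligand related to Notch ligands, had 0.791 to 1.61 FPKM in Kat6a+/- and 0.557 to 1.51 FPKM in WT, with a log2 fold change of 0.04. Rtl1, a gene derived from a retrotransposon, averaged 0.364 FPKM in Kat6a+/- and 0.375 FPKM in WT and was under the level set for testing. The antisense RNA Dio3os had 20 reads in Kat6a+/- and 6 in WT and was also not tested. Counting by strand is not stated, so reads of overlapping genes on opposite strands cannot be told apart.

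**Figure D3:**
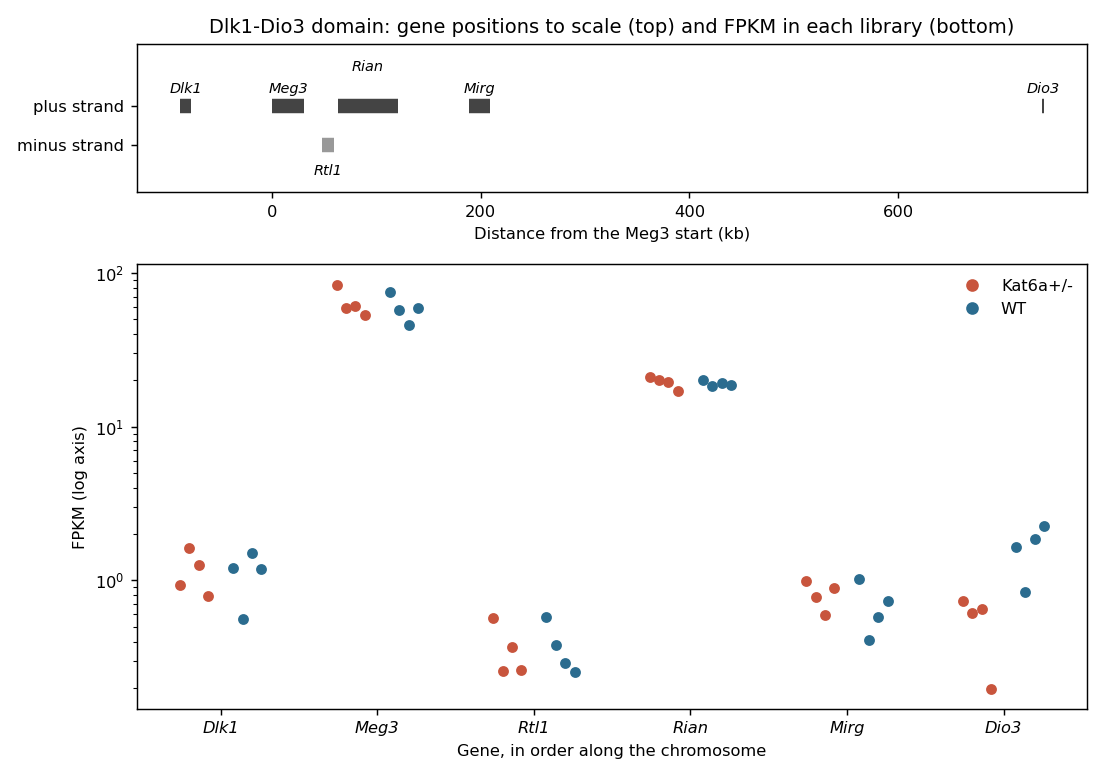
Genes of the Dlk1-Dio3 domain to scale by distance from the Meg3 start in kb (top) and FPKM of each library on a log axis (bottom), Kat6a+/- left of WT for each gene. Dio3, the most distant gene, is the one whose Kat6a+/- values (0.198 to 0.736 FPKM) all lie below its WT values (0.836 to 2.26 FPKM).

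On chromosome 7, Peg3 encodes a large zinc finger protein known in mice for its role in maternal behaviour (chr7:6703892-6730431, minus strand). Peg3 had 21.4, 22.5, 25.1 and 23.1 FPKM in Kat6a+/- and 22.7, 23.7, 23.2 and 23.8 FPKM in WT. The Kat6a+/- libraries spread on either side of the narrow WT range, with a coefficient of variation of 6.69% against 2.07%, and the difference in spread was not tested. The log2 fold change was -0.02 with a 95% interval of -0.14 to 0.09. Its neighbour Usp29, a ubiquitin protease gene that starts beside Peg3 on the other strand, had 1.12 to 1.22 FPKM in Kat6a+/- and 1.12 to 1.28 FPKM in WT. Zim1, a zinc finger gene read from the maternal copy, averaged 0.529 ± 0.017 FPKM in Kat6a+/- and 0.615 ± 0.056 FPKM in WT (SD, n = 4 each). Its log2 fold change was -0.11 (exact permutation p = 0.0571). Zim3 and Zfp264 had at most 1 read in any library.

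Snrpn and Ndn lie in the domain whose human counterpart is affected in Prader-Willi and Angelman syndromes. Snrpn (chr7:59982495-60140219, minus strand) had 154, 158, 156 and 151 FPKM in Kat6a+/- and 147, 159, 161 and 156 FPKM in WT. Over all 8 libraries its highest level was 1.10 times its lowest, the smallest such ratio of the 10 members, and its log2 fold change was -0.01. Its coefficient of variation was 1.92% in Kat6a+/- and 4.21% in WT, and Peg3 and Rian varied less than that among the WT libraries. Snurf, which shares exons with Snrpn, had 0 reads in every library; how reads of the shared exons were counted is not stated.

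Ndn encodes necdin, a MAGE family protein of postmitotic neurons (chr7:62346569-62350262, plus strand). Ndn had 35.5, 35.3, 37.0 and 29.6 FPKM in Kat6a+/-, against 36.4, 34.2, 38.6 and 40.9 FPKM in WT. Kat6a+/- replicate 4 was the lowest and WT replicate 4 the highest, while the other libraries overlapped. The mean was 34.3 ± 3.3 FPKM in Kat6a+/- and 37.5 ± 2.9 FPKM in WT (SD, n = 4 each). Ndn had the most negative log2 fold change of the members, -0.13 with a 95% interval of -0.30 to 0.04 (exact permutation p = 0.229). Without Kat6a+/- replicate 4 it was -0.06.

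The rest of this domain had log2 fold changes from -0.05 for Atp10a, a phospholipid flippase gene, to 0.09 for Mkrn3, a ubiquitin ligase gene. Ube3a, the ubiquitin ligase gene of Angelman syndrome, which neurons read from the maternal copy, had 5.09 to 6.45 FPKM in Kat6a+/- and 5.50 to 6.28 FPKM in WT. Snhg14, the long paternal RNA that runs antisense to Ube3a, had 2.69 to 3.36 FPKM in Kat6a+/- and 2.84 to 3.20 FPKM in WT. The log2 fold changes were -0.01 for Ube3a and 0.01 for Snhg14. Magel2 and Peg12 were below the level for testing, with 135 and 19 reads over the Kat6a+/- libraries and 105 and 20 reads over the WT libraries. Of the 17 listed neighbours of all the domains, 10 were tested, 3 with a positive and 7 with a negative log2 fold change. Limma, edgeR and limma-voom called 0 of the 10 and DESeq2 called Dio3. Dio3 was also the single neighbour of the 10 with an unadjusted p under 0.05 in limma, beside 4.41% of all tested genes, and with groups that did not overlap, beside 2.62% of all tested genes and 1.53% with Kat6a+/- lower.

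Nnat encodes neuronatin, a small membrane protein of the endoplasmic reticulum (chr2:157560078-157562522, plus strand). Nnat had 131, 136, 135 and 125 FPKM in Kat6a+/- libraries, against 142, 127, 141 and 146 FPKM in WT libraries. WT replicate 2 lay among the Kat6a+/- values, and the other WT libraries lay above all of them. The mean was 132 ± 5 FPKM in Kat6a+/- and 139 ± 8 FPKM in WT (SD, n = 4 each), with a log2 fold change of -0.08 and a 95% interval of -0.19 to 0.04 (exact permutation p = 0.171). Nnat lies within an intron of Blcap, on the opposite strand and without shared exons. Blcap had 25.7 to 28.4 FPKM in Kat6a+/- and 25.5 to 29.5 FPKM in WT, with a log2 fold change of -0.07.

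Impact, on chromosome 18, encodes an inhibitor of the stress kinase GCN2. Impact had 58.1, 58.9, 59.2 and 52.4 FPKM in Kat6a+/- and 60.4, 52.5, 60.5 and 62.4 FPKM in WT. A single low library stood in each genotype, replicate 4 of Kat6a+/- and replicate 2 of WT. The log2 fold change was -0.04 with a 95% interval of -0.18 to 0.10 (exact permutation p = 0.457).

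Zrsr1 is a retrogene related to a splicing factor and lies inside Commd1 (chr11:22972005-22976496, plus strand). Zrsr1 had 12.4, 14.1, 12.9 and 13.3 FPKM in Kat6a+/- and 11.7, 11.9, 12.5 and 13.04 FPKM in WT. The groups overlapped, with replicate 2 of Kat6a+/- the highest and replicate 1 of WT the lowest. Zrsr1 had the smallest unadjusted p of the members in limma; its log2 fold change was 0.09 with a 95% interval of -0.02 to 0.21 (exact permutation p = 0.143). Exons of Commd1, on the opposite strand, overlap it. Commd1 had 1.13 to 1.30 FPKM in Kat6a+/- and 0.995 to 1.40 FPKM in WT, with a log2 fold change of -0.01.

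Plagl1, also called Zac1, is a zinc finger transcription factor gene (chr10:13060504-13131694, plus strand). Plagl1 had 1.85, 2.73, 1.91 and 1.81 FPKM in Kat6a+/- and 1.89, 1.64, 2.34 and 2.88 FPKM in WT. Replicate 2 stood above the other Kat6a+/- libraries, and the WT libraries spread over the same range. The log2 fold change was -0.05 with a standard error of 0.16 (exact permutation p = 0.8286). Of 15 genes known from mouse work as imprinted or connected targets of Plagl1, itself included, 12 were tested, 4 with a positive and 8 with a negative log2 fold change, and limma, edgeR, limma-voom and DESeq2 called 0 of them. At an unadjusted p under 0.05 each of the 4 tools passed 1 of the 12, Grb10, beside the share of 4.41% of all tested genes in limma. Besides Meg3, Ndn and Dlk1, given above, Igf2 and H19 were near zero, with means of 0.0913 and 0.0249 FPKM in Kat6a+/- and 0.0944 and 0.0235 FPKM in WT.

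Although the means of the members differed little between the genotypes, some members varied together from library to library. Over the 8 libraries, 3 of the 45 pairs of members passed an exact permutation test of Pearson's r with adjustment over the 45. They joined Nnat, Impact and Ndn, which lie on chromosomes 2, 18 and 7. Nnat and Impact had r = 0.94 and Spearman's rho = 0.95 (permutation p = 1.5e-04, adjusted 0.0067; rho adjusted p = 0.0257). Ndn and Impact had r = 0.87 and rho = 0.95 (permutation p = 3.5e-04, adjusted 0.0078; rho adjusted p = 0.0257). Ndn and Nnat had r = 0.88 and rho = 0.83 (permutation p = 0.0015, adjusted 0.0227; rho adjusted p = 0.138). For all 3 genes the lowest libraries were Kat6a+/- replicate 4 and WT replicate 2, in that order, and the highest was WT replicate 4. Such values of r were not particular to the members. Of 14158 other tested genes, 139 had an r above 0.8 with Nnat, and Impact came 7th among them.

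The relations were then set within genotypes and without the extreme libraries. Within the 4 Kat6a+/- libraries r was 0.95 for Nnat and Impact, 0.99 for Ndn and Impact and 0.89 for Ndn and Nnat; within the 4 WT libraries it was 0.999, 0.872 and 0.876 in the same order. With genotype means removed, r was 0.98, 0.89 and 0.83, and the pair Nnat and Impact alone passed the adjusted threshold (permutation adjusted p = 0.0089). Kat6a+/- replicate 4 and WT replicate 4, the libraries farthest from the median of the first-named gene of each pair, were then left out. There r was 0.87 for Nnat and Impact (permutation p = 0.0056), 0.77 for Ndn and Impact (permutation p = 0.075) and 0.76 for Ndn and Nnat (permutation p = 0.0819). For Impact the farthest libraries were Kat6a+/- replicate 4 and WT replicate 2, so a library extreme for Impact stayed in. With the 6 remaining libraries the pairs with Ndn had an unadjusted p above 0.05. The count of pairs that passed was 1 when libraries were scaled to a common FPKM sum, and 0 without WT replicate 3, without WT replicate 4 or without replicate 1 of both genotypes. In those 3 settings r of Nnat and Impact was 0.93, 0.92 and 0.97 (permutation adjusted p = 0.0536, 0.0536 and 0.0833), with fewer libraries.

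**Figure D4:**
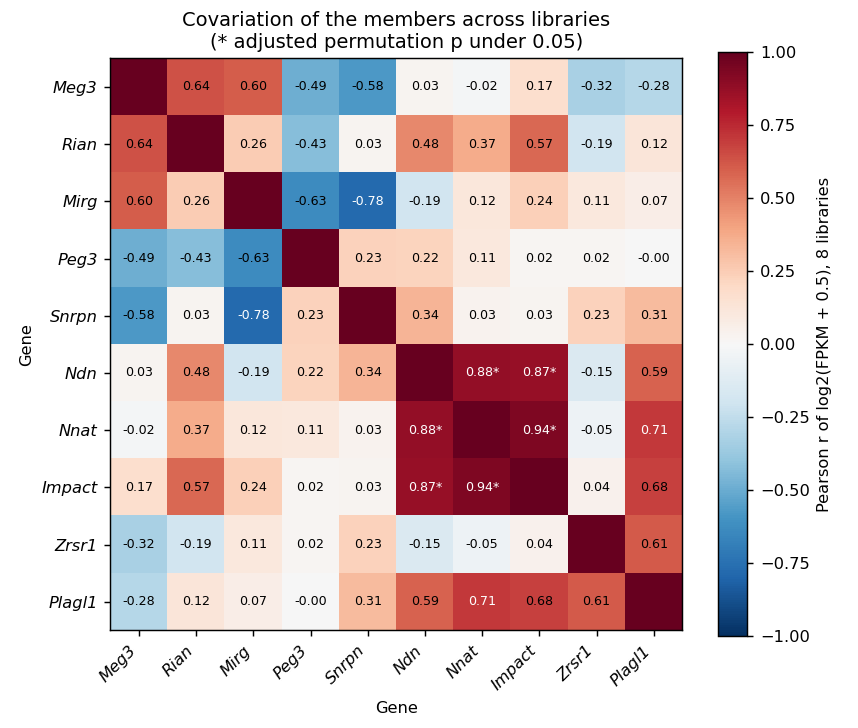
Pearson's r of log2(FPKM + 0.5) over the 8 libraries for all 45 pairs of members, in red where positive and blue where negative; an asterisk marks an adjusted permutation p under 0.05. Asterisks stand at Nnat with Impact (0.94), Ndn with Nnat (0.88) and Ndn with Impact (0.87), while Meg3, Rian and Mirg, of 1 domain, reached 0.64, 0.60 and 0.26.

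Depth and cell markers of the extreme libraries stand beside these relations. The interneuron sum was 379 FPKM in Kat6a+/- replicate 4, 474 FPKM in WT replicate 2 and 434 FPKM in WT replicate 4, the lowest value of all libraries being the first and the highest the second of these. The pan-neuronal sum was 1226 FPKM in Kat6a+/- replicate 4, 1125 FPKM in WT replicate 2 and 1181 FPKM in WT replicate 4. Depth was 17730609 reads in Kat6a+/- replicate 4, 16462428 reads in WT replicate 2 and 18349374 reads in WT replicate 4. The part of cell makeup in this covariation was not tested.

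The maternal RNAs of the Dlk1-Dio3 domain gave no pair past the threshold. Meg3 and Rian had r = 0.64 (permutation adjusted p = 0.491), Meg3 and Mirg 0.60, and Rian and Mirg 0.26. The most negative relation was that of Mirg and Snrpn, r = -0.78 and rho = -0.88 (permutation p = 0.0217, adjusted 0.244). Of the 45 values of r, 32 were above 0.

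**Figure D5:**
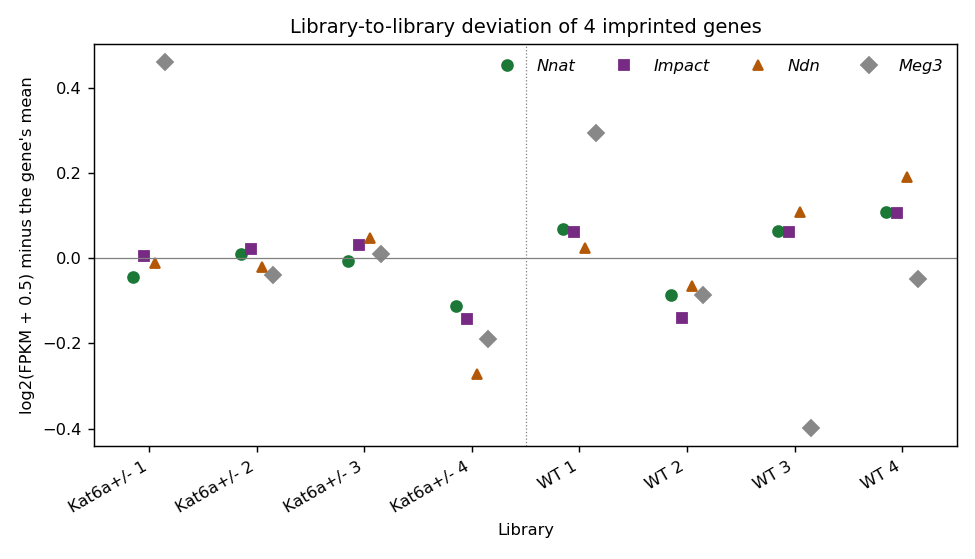
Deviation of log2(FPKM + 0.5) from each gene's mean over the 8 libraries, Kat6a+/- libraries left and WT libraries right of the dotted line. Nnat, Impact and Ndn lie close together in each library and are low in Kat6a+/- 4 and WT 2, whereas Meg3 is high in replicate 1 of each genotype (83.8 FPKM in Kat6a+/-, 74.7 FPKM in WT).

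Dio3 was compared with the 10 members in the same way. It had r = 0.88 with Nnat and 0.87 with Ndn (permutation adjusted p = 0.029 each, over 10 relations) and 0.75 with Impact (permutation adjusted p = 0.107). The values of rho were 0.74 with Nnat, 0.76 with Ndn and 0.79 with Impact, all with a permutation adjusted p of 0.153. With genotype means removed, r was 0.92 with Nnat, 0.93 with Ndn and 0.97 with Impact, and these 3 passed (permutation adjusted p = 0.024, 0.0143 and 0.0143). Without WT replicate 4 and Kat6a+/- replicate 4 it was 0.71, 0.61 and 0.41 in the same order (permutation p = 0.142, 0.214 and 0.496), over 6 libraries. With Meg3, Rian and Mirg, its own domain, Dio3 had r of -0.03, 0.29 and -0.11.

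The genes most like Meg3 across the 8 libraries, by Pearson's r among 14158 other tested genes, were Inha, which encodes an inhibin subunit (0.98), the host gene Snhg11 (0.98), the tRNA methyltransferase gene Trmt1 (0.98), the mitochondrial ribosomal protein gene Mrpl33 (0.97) and Nfrkb (0.96). With 8 libraries, 267 genes had an r above 0.8 with Meg3. Rian came 955th and Mirg 1145th in that order.

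Imprinted genes of other domains were examined as a further list of 30, of which 19 were tested, 11 with a positive and 8 with a negative log2 fold change. Limma, edgeR, limma-voom and DESeq2 called 0 of the 19, and 1, 4, 3 and 2 of them had an unadjusted p under 0.05 in that order, beside 4.41%, 4.35%, 4.24% and 3.3% of all tested genes. Grb10, a growth factor receptor adaptor that neurons read from the paternal copy, had 2.29, 2.66, 2.73 and 2.16 FPKM in Kat6a+/- and 3.39, 2.97, 2.94 and 2.52 FPKM in WT. The groups overlapped through WT replicate 4, and the log2 fold change was -0.22 with a 95% interval of -0.43 to -0.01 (exact permutation p = 0.0857). Ddc, the neighbour of Grb10 that encodes the decarboxylase of dopamine and serotonin synthesis, had 0.997, 0.782, 0.913 and 1.36 FPKM in Kat6a+/- and 0.665, 0.598, 0.872 and 0.866 FPKM in WT, on 44 to 128 reads per library. Its log2 fold change was 0.27 (exact permutation p = 0.114), opposite in sign to that of Grb10.

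H13, a signal peptide peptidase gene, had 5.29 to 6.14 FPKM in Kat6a+/- and 5.94 to 6.64 FPKM in WT, with a log2 fold change of -0.13 (exact permutation p = 0.0857). Inpp5f, a phosphoinositide phosphatase gene, had 13.6 to 14.8 FPKM in Kat6a+/- and 12.8 to 13.6 FPKM in WT, with a log2 fold change of 0.09 (exact permutation p = 0.0571). The calcitonin receptor gene Calcr and the placental growth gene Phlda2 were listed at 0 in every library. The most abundant gene of this list, Nap1l5, averaged 107 ± 6 FPKM in Kat6a+/- and 116 ± 9 FPKM in WT (SD, n = 4 each), with a log2 fold change of -0.11.

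Of 22 genes whose products set, keep or remove the marks of imprints, 17 were tested, 11 with a positive and 6 with a negative log2 fold change. None was called by limma, edgeR, limma-voom or DESeq2. At an unadjusted p under 0.05 there were 2, 3, 3 and 1 in that order, beside 4.41%, 4.35%, 4.24% and 3.3% of all tested genes. The 1 gene by DESeq2 was Tet3, which was also among the 3 by edgeR. Dnmt1, the maintenance DNA methyltransferase, had 6.90, 6.83, 7.33 and 7.51 FPKM in Kat6a+/- and 6.65, 6.72, 6.54 and 6.33 FPKM in WT. Arid4a, a chromatin protein known in mice to act on the Snrpn imprint, had 8.25, 8.47, 8.67 and 8.45 FPKM in Kat6a+/- and 7.51, 7.90, 7.96 and 7.93 FPKM in WT. In both genes all Kat6a+/- values lay above all WT values, as they did in 1.09% of all tested genes. The log2 fold changes were 0.11 for Dnmt1 and 0.11 for Arid4a (exact permutation p = 0.0286 each, the smallest the design allows; limma adjusted p = 0.9998 each). Zfp57, the zinc finger protein that holds methylation at imprinted control regions, averaged 1.01 ± 0.27 FPKM in Kat6a+/- and 1.16 ± 0.13 FPKM in WT (SD, n = 4 each), with a log2 fold change of -0.15. Ehmt2, a histone methyltransferase, had 36.5 to 39.2 FPKM in Kat6a+/- and 38.8 to 40.3 FPKM in WT, with a log2 fold change of -0.05. Dppa3, which protects methylation in the zygote, was listed at 0 in every library.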

How the data were processed

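RNA from the hippocampus was compared in 4 Kat6a+/- and 4 WT libraries. Per the labels' protocols, libraries were prepared from total RNA with a NEBNext Ultra II kit. STAR 2.5, HTSeq and DESeq2 are named in the submitters' processing notes, with build GRCm38; their roles, the annotation release and the strand setting are not given in these sources. FPKM per gene was made by the authors, per the file headers. A further deposited table of 605 genes holds the authors' read counts, a size-factor-scaled signal, FPKM, log2 fold changes and p-values, per the file headers. In the deposited FPKM, 100% of values came out as whole reads within 0.01 once multiplied by gene length and 1 constant per library. For the 605 genes of the further table, 100% of these reads equal the deposited counts. Size factors, the ratio of counts to the scaled signal in that table, were 0.833 to 1.45. Depth was 16462428 to 27875310 reads.

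Limma 3.58.1 (R 4.3.3, with trend) was fitted to log2(FPKM + 0.5) for 14159 genes (mean FPKM of 0.5 or more), genotype alone, two-sided, Benjamini-Hochberg at 0.05. Exact permutation tests covered all 70 assignments; correlations used all 40320 pairings. On the recovered reads, edgeR 4.0.16, limma-voom and DESeq2 1.42.0 were alternatives; edgeR called 0, limma-voom 0 and DESeq2 5 of all tested genes. Each fit was tested on simulated data. Other alternatives changed the pseudocount, filter, scaling, prior trend and covariates, or left out libraries; leaving out replicate 1 of both genotypes was added after the data were seen.

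The members, lists and tests were chosen with earlier results of these data known. Named genes were the members, Dio3 and Kat6a, every tested neighbour in the domains, of each further list up to 4 called genes or the 2 of smallest p in each direction where none was called, and the 5 genes most like Meg3. Other genes named (Nap1l5, Tet3, Slc17a6, Igf2, H19, genes at 0, neighbours not tested, and those like Nnat) were chosen after their values were seen. Gene positions are those of the deposited table; those of 9 of the 10 members equal GENCODE M21 (GRCm38). Figures were drawn with matplotlib 3.10.9 in Python 3.11.15.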

Additional observations from a re-analysis of the deposited data

Results flagged for a closer look

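In groups of 4 libraries, 4 of 58 groups (29 named genes in each genotype) had a library far from the other 3; chance flags about 1 in 20 groups. Impact had 52.4 FPKM in Kat6a+/- replicate 4, against 58.1 to 59.2 FPKM in the other Kat6a+/- libraries. Plagl1 had 2.73 FPKM in Kat6a+/- replicate 2, against 1.81 to 1.91 FPKM in the other Kat6a+/- libraries. Blcap, the host gene of Nnat, had 25.5 FPKM in WT replicate 2, against 29.0 to 29.5 FPKM in the other WT libraries. Arid4a had 7.51 FPKM in WT replicate 1, against 7.90 to 7.96 FPKM in the other WT libraries. Kat6a+/- replicate 2 was also the library with high choroid plexus and ependyma markers, 163 FPKM summed, and WT replicate 1 that with high meningeal markers, 20.3 FPKM summed; their part in these values was not tested.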

How the results depend on the processing

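Across 21 alternatives no member was called, and the members' median log2 fold change ran from -0.03 to -0.0002. The count of called genes was 5 by DESeq2 and 0 to 1 when single libraries were left out, the 1 coming without WT replicate 3; the count among neighbours was 1 by DESeq2, Dio3. Of 604 values of 29 named genes, 572 kept direction and side of the threshold, 2 passed it by DESeq2 (Dio3 at -1.57, Kat6a at -0.38) and 30 changed sign, all below the threshold; 18 of the 29 genes never changed sign. Leaving out single libraries gave -0.013 to 0.24 for Meg3, -0.021 to 0.075 for Rian, -0.064 to 0.0098 for Peg3, -0.038 to 0.0082 for Snrpn, -0.17 to 0.066 for Plagl1, -0.15 to 0.16 for Dlk1, -0.036 to 0.0099 for Usp29, -0.034 to 0.058 for Snhg14, -0.053 to 0.051 for Ube3a, -0.17 to 0.093 for Atp10a and -0.0704 to 0.045 for Commd1. A common FPKM sum gave 0.0038 for Snrpn, 0.0046 for Ube3a and 0.00056 for Commd1, and leaving out replicate 1 of both genotypes, chosen after seeing the data, gave 0.019 for Usp29, 0.022 for Ube3a and 0.16 for Atp10a; the cause was not tested. Pairs of members past the threshold numbered 1 with a common FPKM sum, 1 on deviations from genotype means, 0 without replicate 1 of both genotypes and 0 to 3 without single libraries, with 1 without Kat6a+/- replicate 4 and 0 without WT replicate 3 or 4, where fewer libraries also remained.

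Replicate numbers did not pair the libraries as a set. Deviations of same-numbered libraries correlated at 0.17, -0.07, 0.07 and 0.01, in order of replicate number. The 2 of the 8 libraries that matched best with their own number were the replicate 1 libraries of both genotypes, which correlated at 0.17. With the replicate block limma called 0 genes and 0 members, the members' median stayed at -0.02, and no call of a named gene changed. Depth limits Mirg most among the members, with 49 to 207 reads per library, and among the other named genes Dio3, with 7 to 83 reads, Mkrn3, with 20 to 39 reads, Zfp57, with 42 to 134 reads, and Ddc, with 44 to 128 reads.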

Other observations

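The genes that followed Nnat most closely across the 8 libraries were listed after its relation to Impact and Ndn was seen. Among 14158 other tested genes the 5 with the highest Pearson's r were Samd14 (0.98), the mitochondrial ribosomal protein gene Mrpl46 (0.97), the mitochondrially encoded mt-Nd4 (0.97), the nuclear receptor gene Nr2f2 (0.96) and the kinase gene Lyn (0.96). Impact came 7th, Dio3 33rd, Ndn 37th and Blcap, which contains Nnat, 205th. An r above 0.8 with Nnat was reached by 139 genes.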
